A study of Mus musculus with 8 samples.

Results

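The genes examined here encode parts of the T cell receptor complex and of the killing machinery of lymphocytes: the CD3 chains Cd3d, Cd3e and Cd3g, the co-receptors Cd4, Cd8a and Cd8b1, and the granule genes Gzma, Gzmb, Prf1 and Nkg7. They were chosen by symbol, as the probe set with a single gene symbol and, had a gene several, the highest mean signal; all 10 were found, each in 1 probe set, among 14860 genes with such a probe set. Their log2 signal was read from 8 mammary tumours, 1 Affymetrix Mouse Exon 1.0 ST array each, a chip with probes in the exons of known genes. The tumours fall into 4 labelled MMTV-PyVT/HdhQ7/Q7 and a further 4 labelled MMTV-PyVT/HdhQ111/Q111. In all 8 tumours the MMTV promoter drove the polyoma virus middle T oncoprotein in mammary epithelium, on the FVB/CD1 strain background of the labels. Huntingtin carried 7 glutamines from both alleles in the first genotype and 111 in the second, and no further agent was given. Tumours were taken at a fixed interval after detection, and the study reports that they appear earlier in MMTV-PyVT/HdhQ111/Q111 mice. No source gives the age of the mice used here, and age and genotype cannot be told apart. Whether each tumour came from a separate mouse is not stated either, and p-values measure the spread between these 8 samples. Each tumour is a bulk sample in which fewer T cells and less RNA per cell cannot be told apart.

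As background, a T cell detects antigen with its T cell receptor, which has no signalling tail of its own and depends on the CD3 chains to pass the signal into the cell. CD4 binds MHC class II and marks helper and regulatory T cells, whereas CD8, a pair of alpha and beta chains, binds MHC class I and marks the cytotoxic T cells that kill tumour cells. Killing runs through granules that release perforin, which opens the target membrane, and granzymes, the proteases that enter and start cell death. Natural killer (NK) cells carry the same granules without the T cell receptor.

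The sequences upstream of Cd8a, Gzmb and Gzma are shown because the first pair had the largest genotype differences among the 10 genes. Gzma, a granzyme of the same granules, had the smallest difference of means, from a dim signal. Each is the 250 bases before the RefSeq start in GRCm38.p6, read 5′ to 3′ on the strand of the gene, at chr6:71373177-71373426 (plus strand), chr14:56262335-56262584 (minus strand) and chr13:113100982-113101231 (minus strand). Capitals mark matches on either strand to the letters of RUNX (TGTGGT), ETS (GGAAG), AP-1 (TGANTCA) and CRE half-site (TGACGT) motifs, and no matches overlapped in these 3 windows.
Cd8a: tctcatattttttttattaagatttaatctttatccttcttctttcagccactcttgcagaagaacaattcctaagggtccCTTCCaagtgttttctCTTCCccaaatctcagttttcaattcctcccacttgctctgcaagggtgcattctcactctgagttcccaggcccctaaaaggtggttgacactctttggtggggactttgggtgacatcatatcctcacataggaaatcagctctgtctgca
Gzmb: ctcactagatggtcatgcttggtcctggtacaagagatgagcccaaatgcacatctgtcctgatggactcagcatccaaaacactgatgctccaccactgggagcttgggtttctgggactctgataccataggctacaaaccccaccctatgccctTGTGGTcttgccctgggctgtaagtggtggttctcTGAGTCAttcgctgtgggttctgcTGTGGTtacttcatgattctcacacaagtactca
Gzma: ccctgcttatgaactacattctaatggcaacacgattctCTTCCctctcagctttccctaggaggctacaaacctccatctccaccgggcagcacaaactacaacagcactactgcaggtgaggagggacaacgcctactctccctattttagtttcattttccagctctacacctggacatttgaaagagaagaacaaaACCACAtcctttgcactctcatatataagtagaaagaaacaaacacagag
The Gzmb window held RUNX letters starting 93 and 34 bases before the start and AP-1 letters at 58. That of Gzma held RUNX letters at 50 and ETS letters at 211, and that of Cd8a held ETS letters at 169 and 153. Over the 8 members with a window, RUNX letters were found in 4, ETS letters in 6, CRE letters in 2 and AP-1 letters in 1. Of all 32851 windows of this length, 14% held the RUNX, 64.1% the ETS, 6.47% the CRE and 6.75% the AP-1 letters. These are matches of letters only, and binding was not measured.

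Cd8a and Cd8b1, the 2 chains of CD8, as well as Cd3e and Gzmb had lower signals in every MMTV-PyVT/HdhQ111/Q111 tumour than in any MMTV-PyVT/HdhQ7/Q7 tumour, by 1.15- to 1.42-fold in their means. Cd3g was lower on average with a narrow overlap, and Cd4, Cd3d, Gzma, Prf1 and Nkg7 overlapped between the genotypes. None of the 10 passed an adjusted p under 0.05 (limma, Benjamini-Hochberg over all 23332 probe sets), a limit passed by 0.0129% of all probe sets and by 0.00429% with a lower mean. None was past the study's thresholds of a 1.5-fold difference with an unadjusted p of at most 0.05, passed by 1.36% of all probe sets and by 0.339% with a lower mean. An unadjusted p of at most 0.05 was seen for 5 of 10 (Cd3e, Cd3g, Cd8a, Cd8b1 and Gzmb), all with a lower mean, against 7.88% of all probe sets in either direction, 2.68% lower, and 3.78% lower among the 5396 probe sets whose mean signal lay between the dimmest and the brightest member. Without MMTV-PyVT/HdhQ7/Q7 replicate 1 it was seen for 3 of 10 (Cd3g, Cd8a and Gzmb), against 1.96% lower. The genotypes did not overlap for 4 of 10, all lower, against 4.43% of all probe sets in either direction and 1.72% lower, and against 2.8% lower among the 5396 of like signal. The mean was lower for 8 of 10 members, against 43.6% of all probe sets and 53.4% of those of like signal, and the median log2 difference of the members was -0.18 against 0.02 over all probe sets. In 4 against 4 tumours the smallest p of an exact permutation test is 0.0286.

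**Figure D1:**
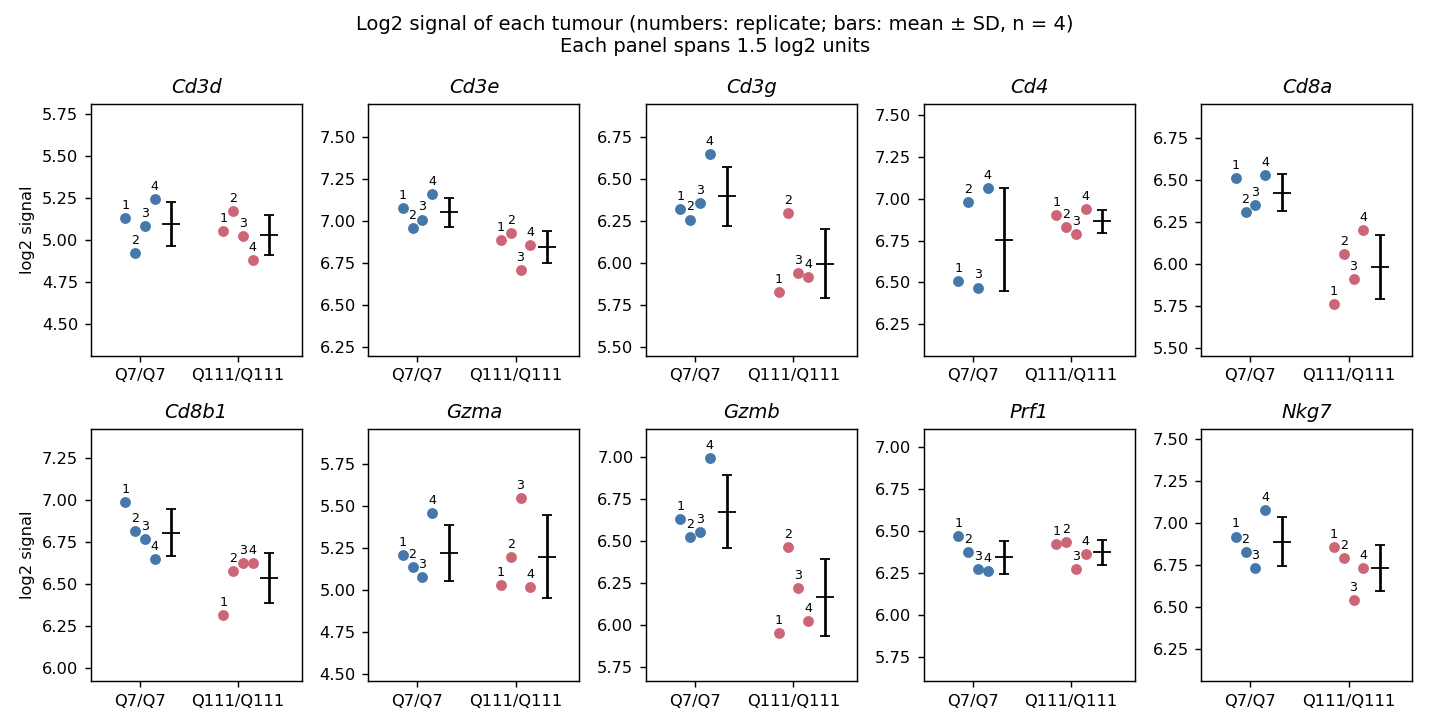
Log2 signal of the 10 genes in each tumour, with replicate numbers beside the points, blue for MMTV-PyVT/HdhQ7/Q7 and red for MMTV-PyVT/HdhQ111/Q111, and the mean ± SD (n = 4) to the right of each group. For Cd3e, Cd8a, Cd8b1 and Gzmb all red points lie below all blue points, and for Prf1 and Gzma the groups lie over each other.

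Among the CD3 chains, which all T cells carry, Cd3e had log2 signals of 7.08, 6.96, 7.01 and 7.16 in MMTV-PyVT/HdhQ7/Q7 replicates 1 to 4 and of 6.89, 6.93, 6.71 and 6.86 in MMTV-PyVT/HdhQ111/Q111 replicates 1 to 4. The groups did not overlap, with replicate 2 of the first group only slightly above replicate 2 of the second. The log2 difference of Cd3e was -0.21 (standard error 0.08), with a 95% interval of -0.38 to -0.03 and an adjusted p = 0.602 from limma (two-sided exact permutation test, p = 0.0286). Cd3g, the gamma chain that pairs with epsilon, lay at 6.32, 6.26, 6.36 and 6.65 against 5.83, 6.30, 5.94 and 5.92 in the same order. The groups overlapped only through MMTV-PyVT/HdhQ111/Q111 replicate 2, which was above MMTV-PyVT/HdhQ7/Q7 replicate 2. Its log2 difference was -0.40 (standard error 0.13, interval -0.69 to -0.11, adjusted p = 0.55 from limma; exact test, p = 0.0571).

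Cd3d, the delta chain, lay at 5.13, 4.92, 5.08 and 5.24 against 5.05, 5.17, 5.02 and 4.88. The 2 groups were interleaved, and the log2 difference was -0.06 (standard error 0.09, interval -0.27 to 0.15, adjusted p = 0.876 from limma). The interval holds both 0 and the log2 difference of Cd3e, so it does not show that Cd3d was equal in both genotypes. Cd3g, Cd3d and Cd3e are neighbours on chromosome 9 in the RefSeq order of protein-coding genes. On the same array, Cd3g minus Cd3d was 1.30 ± 0.10 with 7 glutamines and 0.97 ± 0.16 with 111 (SD, n = 4 each), without overlap, while Cd3e minus Cd3d overlapped, at 1.96 ± 0.05 and 1.82 ± 0.13 (SD, n = 4 each). Cd8a minus Cd3e also overlapped, at -0.63 ± 0.04 and -0.86 ± 0.20 (SD, n = 4 each). These pairs were picked after the values were seen and are given without a test. Cd3d was among the dimmest members, and its signal was above that of only 17.8% of all probe sets.

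Of the co-receptors, Cd8a, the alpha chain that binds MHC class I and is shared by both forms of CD8, lay at 6.51, 6.31, 6.35 and 6.53 in MMTV-PyVT/HdhQ7/Q7 replicates 1 to 4 and at 5.76, 6.06, 5.91 and 6.20 in MMTV-PyVT/HdhQ111/Q111 replicates 1 to 4. Every tumour of the second group was lower than every tumour of the first, and replicate 1 of the second group was lowest. The mean was 1.36-fold lower, a log2 difference of -0.44 (standard error 0.11, interval -0.69 to -0.20, adjusted p = 0.426 from limma; exact test, p = 0.0286). Cd8b1, the beta chain found on conventional cytotoxic T cells, lay at 6.99, 6.82, 6.77 and 6.65 against 6.32, 6.58, 6.63 and 6.63. The groups did not overlap but nearly met, at 6.65 and 6.63. Its log2 difference was -0.27 (standard error 0.10, interval -0.50 to -0.04, adjusted p = 0.605 from limma; exact test, p = 0.0286), and it was -0.19 without MMTV-PyVT/HdhQ111/Q111 replicate 1. Cd8b1 and Cd8a are neighbours on chromosome 6.

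Cd4, which besides helper T cells can mark some myeloid cells, lay at 6.51, 6.98, 6.47 and 7.06 in MMTV-PyVT/HdhQ7/Q7 tumours and at 6.90, 6.83, 6.79 and 6.94 in MMTV-PyVT/HdhQ111/Q111 tumours. Replicates 2 and 4 of the first group were above and replicates 1 and 3 below all of the second, in which the tumours lay close together (SD 0.07 against 0.31). The log2 difference was 0.11 (standard error 0.14, interval -0.21 to 0.43, adjusted p = 0.861 from limma; exact test, p = 0.457). Cd8a minus Cd4 on the same array was -0.33 ± 0.32 with 7 glutamines and -0.88 ± 0.18 with 111 (SD, n = 4 each), without overlap. Cd8b1 minus Cd4 overlapped, at 0.05 ± 0.41 and -0.33 ± 0.18 (SD, n = 4 each). The separation of Cd8a minus Cd4 was narrow, between -0.67 in MMTV-PyVT/HdhQ7/Q7 replicate 2 and -0.74 in MMTV-PyVT/HdhQ111/Q111 replicate 4. Both pairs were chosen after the values were seen and have no test. Whether the 2 probe sets of a pair differed unequally was thus not tested, and neither is shown to have stayed the same.

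Among the granule genes, Gzmb, granzyme B, the protease that cleaves caspases in the target cell, lay at 6.63, 6.52, 6.55 and 6.99 in MMTV-PyVT/HdhQ7/Q7 replicates 1 to 4 and at 5.95, 6.46, 6.22 and 6.02 in MMTV-PyVT/HdhQ111/Q111 replicates 1 to 4. The groups did not overlap, replicate 4 of the first group was highest, and replicate 2 of the second was closest to the first. The mean was 1.42-fold lower, the largest difference among the 10 genes, with a log2 difference of -0.51 (standard error 0.14, interval -0.83 to -0.19, adjusted p = 0.505 from limma; exact test, p = 0.0286). Without MMTV-PyVT/HdhQ111/Q111 replicate 2 it was -0.61, and Gzmb was then past the study's thresholds. Gzmb lies beside its paralogue Gzmc on chromosome 14, and whether its probes also bind transcripts of related granzymes was not tested.

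Gzma, granzyme A, a granule protease of different substrate preference, lay at 5.21, 5.14, 5.08 and 5.46 against 5.03, 5.20, 5.55 and 5.02. The highest tumour of all was MMTV-PyVT/HdhQ111/Q111 replicate 3, and the groups were interleaved. Its log2 difference was -0.02 (standard error 0.14, interval -0.33 to 0.29, adjusted p = 0.978 from limma). The interval holds the log2 differences of Cd3e and Cd8b1, so Gzma is not shown to be equal in both genotypes. Its signal was above that of only 19.6% of all probe sets. Prf1, perforin, lay at 6.47, 6.37, 6.27 and 6.26 against 6.42, 6.43, 6.27 and 6.36, and its 8 values spanned the narrowest range among the members. Its log2 difference was 0.03 (standard error 0.07, interval -0.14 to 0.20, adjusted p = 0.934 from limma), and -0.04 with each array centred on its median. Nkg7, a membrane protein of cytotoxic granules, lay at 6.92, 6.83, 6.73 and 7.08 against 6.86, 6.79, 6.54 and 6.73, overlapping with a log2 difference of -0.16 (standard error 0.10, interval -0.39 to 0.07, adjusted p = 0.71 from limma). Gzmb minus Gzma on the same array was 1.45 ± 0.06 (SD, n = 4) against 0.96 ± 0.24 (SD, n = 4) and Gzmb minus Prf1 0.33 ± 0.27 against -0.21 ± 0.23 (SD, n = 4 each), neither with overlap and both chosen after the values were seen.

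The signals were dim. Of the 10 members, 9 were among the dimmest 40% of all probe sets, and Cd3e alone was above that limit, at a percentile of 40.9. Detection above background on each array was not analysed here, and no background level is known for the deposited values.

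The members did not vary as 1 block from tumour to tumour. Of the MMTV-PyVT/HdhQ7/Q7 tumours, replicate 4 was highest for 8 of 10 members, all but Cd8b1 and Prf1, for both of which it was lowest. Of the MMTV-PyVT/HdhQ111/Q111 tumours, replicate 2 was highest for 5 members (Cd3d, Cd3e, Cd3g, Gzmb and Prf1) and lowest for none, while replicates 1 and 3 were each lowest for 4. Gzmb and Cd3g were most like the mean of the other 9 members, with r = 0.95 and 0.93 over the 8 tumours and 0.88 and 0.82 after the genotype means were removed. Cd4 and Prf1 were least like it, with r = -0.13 and -0.21, but after the genotype means were removed the lowest r were those of Cd8b1 (-0.16, from 0.45) and Prf1 (-0.09), with Cd4 at 0.18. These are descriptions over 8 arrays that share 2 genotypes.

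**Figure D2:**
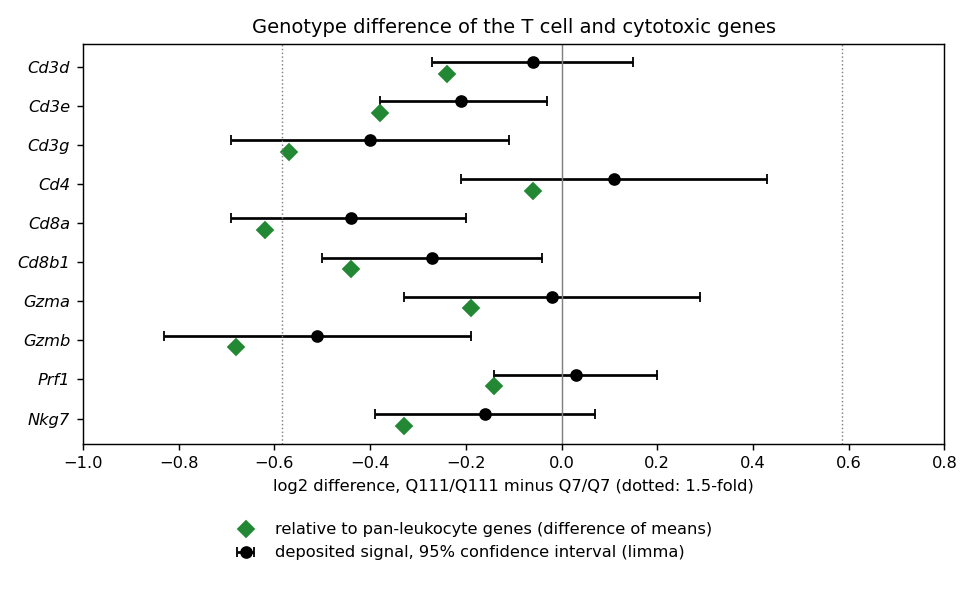
Log2 difference, MMTV-PyVT/HdhQ111/Q111 minus MMTV-PyVT/HdhQ7/Q7, of each gene in the deposited signal with its 95% confidence interval from limma (black) and relative to the mean of 12 pan-leukocyte genes in the same tumour (green diamonds, no interval drawn), with dotted lines at a 1.5-fold difference. The intervals of Cd3e, Cd3g, Cd8a, Cd8b1 and Gzmb lie below 0. Each diamond lies to the left of its black point by the same shift, the 0.17 by which the reference mean was higher.

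Genes listed as pan-leukocyte had differences on the other side of 0, so the member genes were also set against them. The share of each leukocyte type in the signal of this list was not tested. Each of the 12 measured pan-leukocyte genes had a higher mean with 111 glutamines, where 56.4% of all probe sets also did, with a median log2 difference of 0.17 (0.10 with each array centred on its median). Of these, 5 had an unadjusted p of at most 0.05, against 5.2% of all probe sets higher at that p, and none an adjusted p under 0.05 from limma. The list mean ranged from 8.07 to 8.22 in these tumours and from 7.91 to 8.01 in MMTV-PyVT/HdhQ7/Q7 tumours. Cd53, a tetraspanin of leukocytes, had a log2 difference of 0.27 and the lysosomal gene Laptm5 one of 0.13. Relative to the mean of this list in the same tumour, Cd3e, Cd3g, Cd8a, Cd8b1, Gzmb and Nkg7 did not overlap and were lower, 6 of 10, where 17.5% of all probe sets and 24.5% of those of like signal also were, since the reference itself differed. Gzmb was 1.60-fold and Cd8a 1.53-fold lower on this scale (exact test of each of 10 genes, p = 0.0286 for each of the 6). The list mean was higher in every MMTV-PyVT/HdhQ111/Q111 tumour, and all log2 differences were shifted down by the same 0.17. The 4 genes already lower without overlap (Cd3e, Cd8a, Cd8b1 and Gzmb) therefore had to stay so, with their p fixed beforehand. For them this scale adds nothing to the deposited signal. Cd4 relative to the list was -1.28 ± 0.04 with 111 glutamines and -1.22 ± 0.33 with 7 (SD, n = 4 each; exact test, p = 0.657). The count depended on the reference. With macrophage and dendritic cell markers it was 2 of 10 (Cd8a and Cd8b1), near the shares of 7.62% of all probe sets and 11.2% of those of like signal. With mammary epithelial markers, a list with the widely varying Csn2, it was 0 of 10, against 0.214% of all probe sets.

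Other genes of T cell signalling lay on both sides of 0. Of 19 measured genes of T cell receptor signalling and the T cell surface (25 listed), 11 had a lower and 8 a higher mean, and their median log2 difference was -0.03 against 0.02 over all probe sets. None was past the study's thresholds, and none passed an adjusted p under 0.05 from limma. At an unadjusted p of at most 0.05, 1 was lower (Grap2, an adaptor named after its values were seen, -0.19) and 1 higher (Fyb). Over all probe sets, 2.68% were lower and 5.2% higher at that p. Among the brightest, Fyb, an adaptor also found in myeloid cells, had a log2 difference of 0.21 without overlap, Lcp2, the adaptor SLP-76, one of 0.18, Bcl11b, a transcription factor of the T lineage, one of 0.09, and Thy1, which fibroblasts also carry, one of 0.46. Further partners of the receptor and T cell surface genes, named after their values were seen, lay on both sides of 0: Cd247, Zap70, Cd5 and Cd6 at -0.08, -0.13, -0.14 and -0.09, and Lat, Prkcq and Cd2 at 0.10, 0.12 and 0.02, each with overlap.

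Of 17 measured NK cell and other cytotoxic genes (27 listed), 13 were lower, with a median log2 difference of -0.06. Of all probe sets 43.6% were lower, and 53.4% of those with a signal like that of the members. An unadjusted p of at most 0.05 was seen for 1 of the 17 (Cd160, a receptor named after its values were seen, -0.21), against 2.68% of all probe sets lower at that p. None reached the study's thresholds. Ifng, interferon gamma, lay at -0.11, Tbx21, the transcription factor T-bet, at 0.01, Ctsw, a protease of cytotoxic cells, at -0.08 and Xcl1, a chemokine for cross-presenting dendritic cells, at -0.19, all with overlap. Klrd1 and Ncr1, receptors of NK cells named after their values were seen, lay at -0.02 and 0.06. The regulatory T cell and checkpoint genes split evenly, 5 lower and 5 higher of 10 measured (13 listed), with a median of 0.01. Foxp3, Ctla4 and Tigit were listed but not matched to a probe set with a single symbol, so these genes were not assessed. Cd274, which encodes the checkpoint ligand PD-L1, had a log2 difference of -0.32 (adjusted p = 0.634 from limma) with overlap, and Ikzf2, a transcription factor of regulatory T cells, one of -0.09. Tnfrsf18 and Tnfrsf4, costimulatory receptors of the same cells, lay at -0.00 and 0.04.

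**Figure D3:**
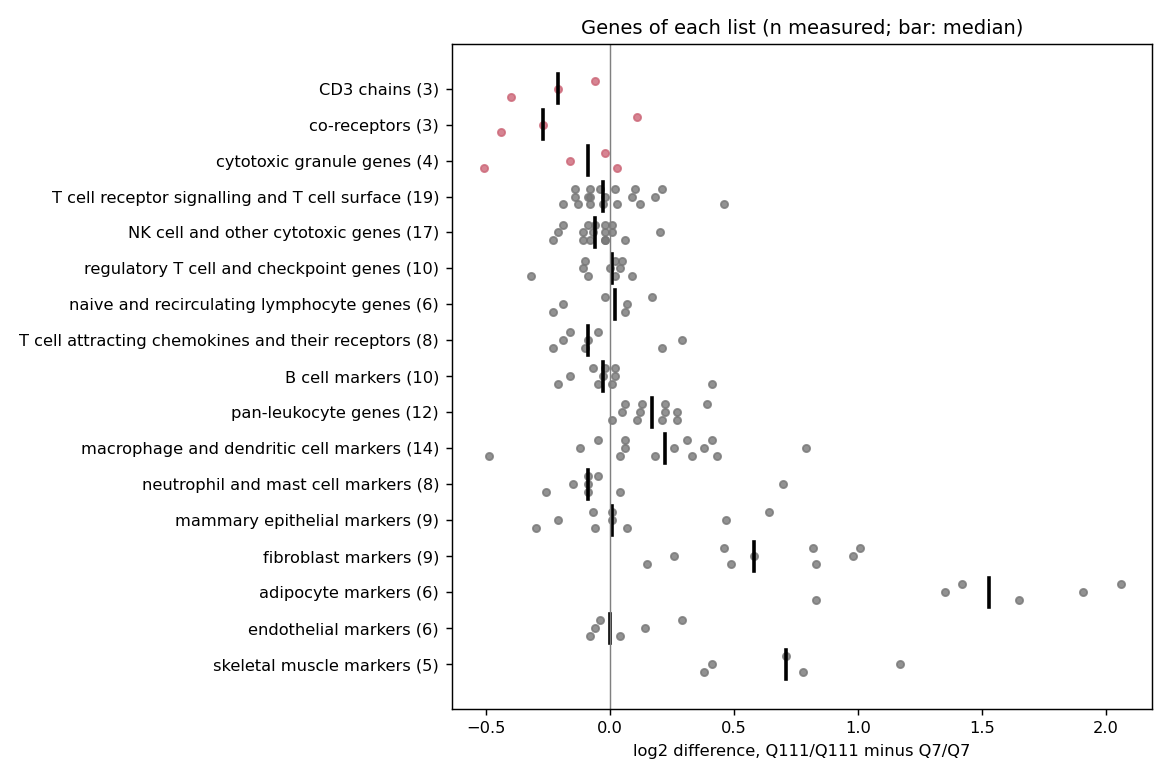
Log2 difference, MMTV-PyVT/HdhQ111/Q111 minus MMTV-PyVT/HdhQ7/Q7, of every measured gene of each list (points, the 10 member genes in red and other lists in grey, the number measured in brackets) with the list's median as a bar. The medians of the T cell signalling, NK cell, checkpoint, naive lymphocyte and B cell lists lie between -0.06 and 0.02, and those of pan-leukocyte genes and of fibroblast and adipocyte markers lie above 0.

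Genes of naive and recirculating lymphocytes had a median log2 difference of 0.02, 3 lower and 3 higher of 6 measured, among them the receptor genes Il7r (0.07) and S1pr1 (0.17), and Klf2 (-0.02) and Satb1 (0.06), both transcription factors. B cell markers had a median of -0.03 over 10 measured genes, and their mean ranged from 5.50 to 5.62 in MMTV-PyVT/HdhQ7/Q7 and from 5.45 to 5.67 in MMTV-PyVT/HdhQ111/Q111 tumours. Cd79a and Cd79b, the signalling chains of the B cell receptor, had log2 differences of -0.21 and 0.02, the B lineage factor Pax5 one of -0.07 and Pou2af1, a coactivator of B cells, one of 0.41, with 7.43 in MMTV-PyVT/HdhQ111/Q111 replicate 4 and 5.89 to 6.65 in the other tumours. Of 8 measured chemokine and receptor genes that draw T cells, 6 were lower, as were 43.6% of all probe sets. None was so at an unadjusted p of at most 0.05, and the median was -0.09. Ccl5, which T and NK cells themselves make, lay at -0.23 (adjusted p = 0.671 from limma) and Cxcl10, induced by interferon, at -0.05, while Cxcl16 lay at -0.09 and the chemokine receptor gene Cx3cr1 at 0.29.

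The tissue of origin was seen in all 8 tumours and other cell types differed beside the members. Epcam and Cdh1, defining markers of epithelium, lay between 12.61 and 12.77 and between 12.23 and 12.40 with log2 differences of -0.06 and 0.01. Elf5, a factor of alveolar cells, differed by 0.07, and Csn2, the milk protein beta-casein, ranged from 8.79 to 13.84. Of 14 macrophage and dendritic cell markers, 11 had a higher mean with 111 glutamines, with a median log2 difference of 0.22 and list means of 7.60 to 7.95 against 7.53 to 7.71. The other 3 were lower, among them Cd14, at -0.49 with overlap. All 9 fibroblast markers had a higher mean, with a median of 0.58 and list means of 9.32 to 9.72 against 8.57 to 9.17. All 6 adipocyte markers had a higher mean, with a median of 1.53 and list means of 6.52 to 10.08 against 6.23 to 7.17. Beside these counts for macrophage, fibroblast and adipocyte markers, 56.4% of all probe sets had a higher mean. Skeletal muscle markers had list means of 6.30 to 9.42 against 6.49 to 7.69. Endothelial markers had a median of -0.00, neutrophil and mast cell markers one of -0.09 over 8 measured. Past the study's thresholds, all with a higher mean, were 4 of 9 fibroblast, 2 of 6 adipocyte and 1 of 14 macrophage and dendritic cell markers. Of all probe sets, 1.36% passed these thresholds. Of the neutrophil and mast cell markers, 1 was past them. It was the mast cell gene Cpa3, named after its values were seen, at 0.70 with overlap (adjusted p = 0.499 from limma).

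By tumour, MMTV-PyVT/HdhQ111/Q111 replicate 1 had the highest adipocyte mean (10.08). Of the members, Cd3g, Cd8a, Cd8b1 and Gzmb were lowest of their group in it, Nkg7 was highest (6.86), and Cd3d, Cd3e, Cd4, Gzma and Prf1 were neither. MMTV-PyVT/HdhQ111/Q111 replicate 2 had the lowest adipocyte mean of its group (6.52), inside the range of the other genotype, and was highest of its group for 5 members and lowest for none. MMTV-PyVT/HdhQ7/Q7 replicate 4 had the lowest adipocyte mean (6.23) and fibroblast mean (8.57), and was highest of its group for 8 members and lowest for Cd8b1 and Prf1. Without MMTV-PyVT/HdhQ111/Q111 replicate 1 the log2 differences were -0.22 for Cd3e, -0.34 for Cd3g, -0.37 for Cd8a, -0.19 for Cd8b1, -0.44 for Gzmb and -0.20 for Nkg7. The part of stroma and fat in the genotype difference of the members was not tested.

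**Figure D4:**
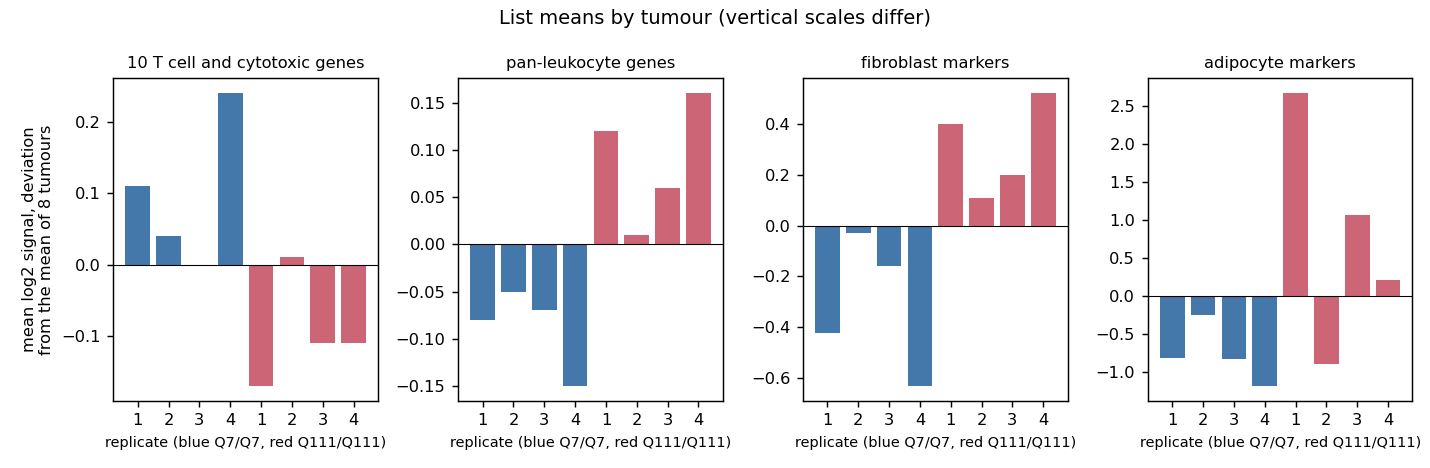
Mean log2 signal of the 10 member genes and of 3 lists in each tumour as the deviation from the mean of all 8 (blue, MMTV-PyVT/HdhQ7/Q7 replicates 1 to 4, and red, MMTV-PyVT/HdhQ111/Q111 replicates 1 to 4, each panel on its own scale). The member mean is highest in blue replicate 4 (0.24) and lowest in red replicate 1 (-0.17), and the adipocyte panel has its lowest bar in the former (-1.18) and its highest in the latter (2.67).

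Over all 14850 other genes, those most like the member mean over the 8 tumours were Luzp2 (r = 0.99), Olfr117 and Dnttip1 (0.97 each), Rab38 (0.96), Triml1 and Ptgds (0.95 each), Tor4a (0.94) and Fads2, Lysmd4 and Casp12 (0.93 each). None of these 10 belongs to the lists of leukocyte or stromal genes. Luzp2 had a log2 difference of -1.10 (adjusted p = 0.591 from limma) and kept r = 0.98 with the genotype means removed. These r are the highest of 14850 over 8 arrays, given with no p.

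Htt, which lies on chromosome 5 with none of the members, differed 1.63-fold, with 8.65 to 8.92 in MMTV-PyVT/HdhQ111/Q111 against 9.43 to 9.60 in MMTV-PyVT/HdhQ7/Q7 tumours (adjusted p = 0.07 from limma), so the groups were separated in the gene that defines them. Array medians lay between 7.58 and 7.74 and were on average 0.07 higher in MMTV-PyVT/HdhQ111/Q111 tumours, and any 2 arrays correlated with r of 0.984 to 0.990 over probe sets.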

How the data were processed

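Total RNA from 8 snap-frozen mammary tumours, 4 per genotype as given by the sample titles, was hybridized to Affymetrix Mouse Exon 1.0 ST arrays, and the labels name the core transcript cluster file on mm9. The authors deposited 1 log2 value for each probe set and array. No source states the normalization of that table. For the study's own gene analysis, quantile normalization and a background correction by antigenomic probes are described. The values were used as deposited. Symbols came from the platform annotation: 14996 of 23332 probe sets have 1 symbol, 1019 several and 7317 none. Precision is limited by the number of arrays.

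The genotypes were tested over all probe sets with limma 3.58.1 in R 4.3.3 (moderated variance, no trend, two-sided, Benjamini-Hochberg), and single genes with the exact permutation test over 70 labellings. The steps were tested on simulated data. Python 3.11.15 and matplotlib 3.10.9 were used for lists and plots. The 10 members and the lists were chosen with earlier results of these data known. The rule for named genes took the members, the 4 brightest measured genes of each list, list genes of lymphocytes past a threshold (there were none), the 10 genes most like the members and Htt. Not all of the brightest genes are printed for the pan-leukocyte, macrophage, neutrophil, fibroblast, adipocyte, endothelial and muscle lists. Every p-value in the text was computed here. Promoter windows came from RefSeq, GRCm38.p6, which held 8 of the 10 members; its gene order, not its coordinates, was used otherwise.

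Alternatives tried were quantile normalization, centring on array medians, array weights, the methods' t-test, robust fitting with a variance trend, leaving out the dimmest 40% of probe sets, each single-symbol gene once, a replicate block, leaving out each tumour, a fold threshold of 1.2 and other reference lists. The epithelial reference list and the count without overlap under other scalings were added after the data were seen.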

Additional observations from a re-analysis of the deposited data

Results flagged for a closer look

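In each group of 4 tumours the highest or lowest value was compared with the others. This was done for the members and the 4 brightest measured genes of each other list, 132 groups in all. Further genes named in the text were not compared in this way. Chance sets a tumour apart in about 1 of 20 groups (6.6), and 2 such cases were found. Cd8b1 was 6.32 in MMTV-PyVT/HdhQ111/Q111 replicate 1 and 6.58 to 6.63 in the other tumours of that genotype, and without this tumour its log2 difference was -0.19 (adjusted p = 0.669 from limma) in place of -0.27. Ccl5 was 6.77 in the same tumour and 6.50 to 6.52 in the others of its genotype, so it stood out upwards while Cd8b1 stood out downwards.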

How the results depend on the processing

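The number of members at an adjusted p under 0.05 was 0 under all alternatives run. Cd3d, Cd3e, Cd3g, Cd4, Cd8a, Cd8b1, Gzmb and Nkg7 kept their direction under each alternative, Cd8a between -0.52 and -0.37 and Gzmb between -0.61 and -0.41 on the log2 scale. Gzma, at -0.14 to 0.06 when 1 tumour was left out, turned to 0.04 without MMTV-PyVT/HdhQ111/Q111 replicate 1 or 4 and to 0.06 without MMTV-PyVT/HdhQ7/Q7 replicate 4, and Prf1 to -0.04 with arrays centred on their medians. The 5 members lower at an unadjusted p of at most 0.05 became 3 (Cd3g, Cd8a and Gzmb) with a replicate block and without MMTV-PyVT/HdhQ7/Q7 replicate 1, the range without 1 tumour being 3 to 5, and 1 without the dimmest 40% of probe sets, since only Cd3e was then tested. With arrays centred on their medians the 5 remained, but 6.38% of all probe sets were then lower at that p, against 2.68% as deposited. At the study's thresholds 0 members became 1 (Gzmb) without MMTV-PyVT/HdhQ111/Q111 replicate 2, the range without 1 tumour being 0 to 1, and 4 (Cd3g, Cd8a, Cd8b1 and Gzmb) at a fold of 1.2, which 5.62% of all probe sets passed. The 4 members without overlap remained Cd3e, Cd8a, Cd8b1 and Gzmb with arrays centred on their medians and after quantile normalization, against 4.35% and 2.87% of all probe sets. When 1 tumour is left out such a count can only stay or grow, and it was 4 to 5, against 2.65% to 4.26% of all probe sets. Relative to leukocyte genes, 6 to 8 members were lower without overlap when 1 tumour was left out, against 19.3% to 26.4% of all probe sets, 2 relative to macrophage and dendritic cell markers and 0 relative to mammary epithelial markers, where 0.214% of all probe sets were and the list includes the widely varying Csn2. With arrays centred on their medians the medians of the T cell signalling and NK cell lists were -0.10 and -0.12. Such centring lowers the log2 difference of every probe set alike. The shift is the 0.07 by which array medians were on average higher in MMTV-PyVT/HdhQ111/Q111 tumours. Same-numbered tumours deviated from their group means with r between -0.189 and 0.029, so the numbers were not taken to pair tumours. No member had a further probe set, so an average over the rows of a gene could not be run.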
